A study of Homo sapiens with 6 samples.

Results

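BAHD1 and the proteins it is known to work with in gene silencing were read here at the RNA level in HEK293 cells after transfection with a BAHD1 siRNA. The members were BAHD1 itself, the heterochromatin protein 1 genes CBX1, CBX3 and CBX5, MBD1, SETDB1, TRIM28, HDAC5, HDAC1 and SP1. Every probe set of the array whose annotated gene was one of these 10 was taken and read on its own, which gave 27 of the 54675 probe sets. None of the 27 was annotated to more than 1 gene. HEK293 is a human cell line derived from embryonic kidney. The cells were transfected with a BAHD1 siRNA (3 arrays) or a control siRNA (3 arrays) by lipid transfection, and total RNA was taken after 72 h in both groups. The titles call the arrays of each group biological replicates without saying that they came from separate transfections, so a p-value measures only the spread between these samples. The siRNA sequences were not used here.

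BAHD1 carries a bromo-adjacent homology (BAH) domain, a fold that reads modified histone tails, and acts as a scaffold of compact, silent chromatin. The HP1 proteins bind methylated lysine 9 of histone H3. SETDB1 writes that methyl mark and is brought to its targets by the corepressor TRIM28, also called KAP1. MBD1 binds methylated CpG sites, and HDAC1 and HDAC5 belong to the histone deacetylase family. SP1 is a transcription factor that binds GC boxes and is known to help bring BAHD1 to target promoters. RNA levels describe how much message for each of these genes was present, not how much protein or complex was formed.

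SP1 is a member, so the GC box was looked for in RefSeq promoter windows (build GRCh38.p14, 250 bases before to 50 after a transcript start) of the members. The sequences are shown for BAHD1, the targeted gene, and for CBX3, whose probe sets all had a positive fold change. Capitals mark the motif GGGCGG or its reverse complement CCGCCC, and both sequences read 5′ to 3′ on the gene's strand, which is the plus strand for both. The first lies at chr15:40440703-40441002 and the other at chr7:26201193-26201492.
BAHD1 promoter: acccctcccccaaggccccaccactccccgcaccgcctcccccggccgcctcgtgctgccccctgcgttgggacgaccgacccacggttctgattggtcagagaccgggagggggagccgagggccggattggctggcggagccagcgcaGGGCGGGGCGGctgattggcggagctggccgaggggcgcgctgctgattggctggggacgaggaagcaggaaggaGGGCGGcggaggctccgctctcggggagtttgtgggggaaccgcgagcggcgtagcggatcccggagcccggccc
CBX3 promoter: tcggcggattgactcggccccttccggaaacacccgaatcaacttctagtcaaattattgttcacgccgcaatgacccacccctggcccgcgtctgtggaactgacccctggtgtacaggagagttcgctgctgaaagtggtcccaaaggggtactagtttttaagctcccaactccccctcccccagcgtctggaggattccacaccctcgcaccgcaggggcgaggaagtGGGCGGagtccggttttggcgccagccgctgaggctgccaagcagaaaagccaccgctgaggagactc
The BAHD1 window shown, 1 of 3 for this gene, held 3 matches, of which the first and second overlap by a base, and the CBX3 window held 1. At least 1 match was present in 7 of the 14 windows found for 8 of the 10 members, against 45.0% of all 35116 windows of the same length, and 15.8% of all windows held 3 or more. A match is a string of letters in this window and not a measured SP1 site.

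Each array carried one sample on a common scale, with a median signal of 17.5 to 19.5 in BAHD1 siRNA arrays and 15.9 to 17.9 in control arrays. Of the 6 HEK293 markers looked at, which included the neurofilament genes NEFL and NEFM and the filament gene VIM, all 6 had a probe set at 24.3 or more on every array. Over all 11 probe sets of these markers signals were 0.8 to 3679.3, as some of the probe sets were dim. Of their 8 tested probe sets 3 rose and 1 fell in the intensity-trend fit described below. The rises were in NEFL 221801_x_at and 221916_at and in NEFM 205113_at, and the fall was in VIM 201426_s_at. Among all tested probe sets 4.45% were called. The 8 are few and the lists were chosen with earlier results of these data known, so no conclusion is drawn from the larger share. The part of these changes in the members' values was not tested. For 6 genes of blood, liver and endothelium, among them PTPRC, ALB and CDH5, signals over all probe sets were 0.2 to 22.5. In the brightest probe set of each gene they were 0.5 to 22.5. PECAM1 1559921_at, at 13.8 to 20.1, was bright enough to be tested. The summed signal of their 19 probe sets was 88.9 to 110.7 in BAHD1 siRNA arrays and 78.8 to 111.5 in control arrays. Shifts between the groups also appeared outside the members. The 24 probe sets for poly-A RNAs added before labelling had a mean log2 signal of 9.02 to 9.32 in BAHD1 siRNA arrays and 8.55 to 8.76 in control arrays, a median log2 difference of 0.58 that is larger than the change of any tested member probe set. The ratio of the 3′ to the 5′ probe set, a sign of RNA quality, was 0.956 to 0.966 in BAHD1 siRNA arrays and 0.926 to 0.955 in control arrays for GAPDH, without overlap. For ACTB it was 1.49 to 1.67 in BAHD1 siRNA arrays and 1.47 to 1.54 in control arrays, with overlap. Among all tested probe sets, the median log2 fold change was 0.11 in the dimmest of 4 equal bins of mean signal and -0.035 in the brightest. The part of these shifts in the values below was not tested.

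BAHD1 signal was lower in the BAHD1 siRNA cells, but did not pass the test adjusted over all tested probe sets. Its single probe set, 203051_at, had signals of 36.6, 46.8 and 41.2 in BAHD1 siRNA arrays, against 62.9, 55.7 and 46.7 in control arrays. The groups met at one point, where BAHD1 siRNA replicate 2 and control replicate 3 had almost the same signal. On the log2(signal + 1) scale, on which all tests were made, the mean was 5.40 ± 0.17 in BAHD1 siRNA cells and 5.80 ± 0.21 in control cells (SD, n = 3 each). The remaining signal was 76.0% of control, with a 95% interval of 59.3% to 97.4% from the limma fit. The log2 fold change was -0.40 ± 0.15 SE (limma, adjusted p = 0.251 over all tested probe sets). An exact two-sided permutation test of the 6 arrays gave p = 0.2, where 3 against 3 cannot go below 0.1. The size of the change was larger than that of 83.8% of all tested probe sets. It was lower by quantile-normalised signal as well (-0.46), and lay between -0.51 and -0.30 with any 1 array left out. In another limma fit the prior for the variance was allowed to depend on brightness, and it is called the intensity-trend fit here. It also gave an adjusted p of 0.251, with an interval for the log2 fold change that just included 0 (-0.80 to 0.010). Probe set 203051_at was dim, and on the log2(signal + 16) scale, which shrinks changes of dim probe sets, its fold change was -0.30. The background under dim signals is not known. The 76.0% is therefore a ratio of signals and may differ from the share of BAHD1 RNA that remained. Whether the siRNA target lies near this probe set was not examined. RNA levels at 72 h do not show the amount of BAHD1 protein.

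**Figure D1:**
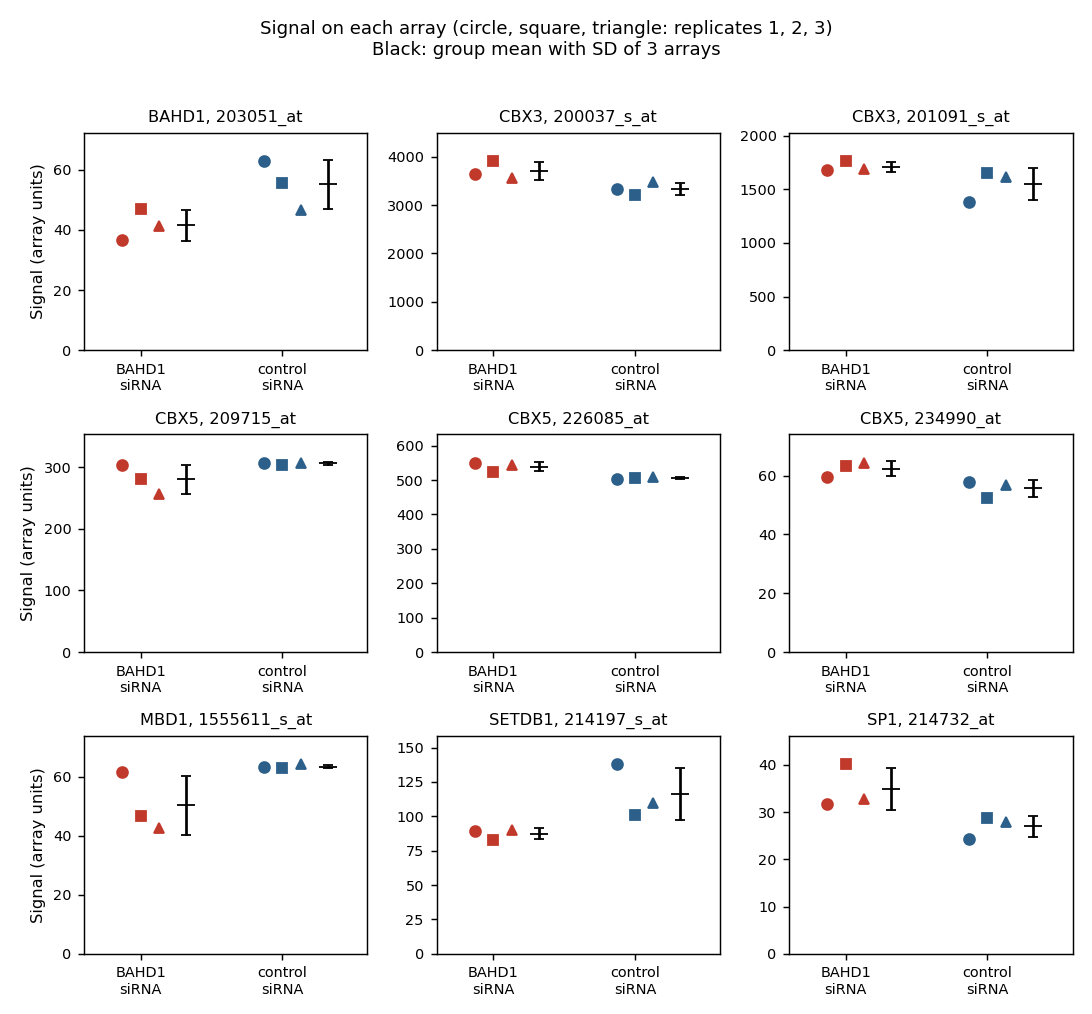
Signal in array units (linear axis from 0) on each of the 6 arrays for BAHD1 and for the 8 member probe sets whose groups did not overlap. Red points are BAHD1 siRNA arrays, blue points control siRNA arrays, and black bars give the group mean and SD (n = 3). Most gaps between the groups are small beside the height of the signal, as for CBX5 226085_at at 524.3 to 550.4 in BAHD1 siRNA arrays and 503.5 to 508.0 in control arrays, and the widest in proportion are those of SETDB1 214197_s_at and SP1 214732_at.

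The array-by-array pattern of BAHD1 was set beside those of 23545 other tested probe sets with 1 annotated gene. Likeness was the mean absolute difference between log2 profiles over the 6 arrays, each centred on its own mean. The closest gene was TBL1XR1, a corepressor subunit gene, at 0.0328, with signals of 84.7, 105.9 and 93.2 in BAHD1 siRNA arrays and 139.3, 117.5 and 102.2 in control arrays. RBM26 followed at 0.0343, CSNK1D at 0.0447, CCDC191 at 0.0463 and CTPS2 at 0.0534. With so many probe sets and 6 arrays, some close profiles are to be found for any gene, and the median distance was 0.262. A flat profile would stand 0.207 from that of BAHD1. None of the partners was among the closest, and their distances ran from 0.147 for MBD1 208595_s_at and 0.154 for SETDB1 214197_s_at to 0.375 for SP1 214732_at.

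The HP1 genes did not change past the test in either fit, and their probe sets differed in direction. CBX3, which encodes HP1 gamma, had 4 probe sets, all with positive fold changes. In 200037_s_at its signals were 3650.5, 3911.8 and 3556.1 in BAHD1 siRNA arrays, against 3329.0, 3210.4 and 3466.2 in control arrays. In 201091_s_at they were 1681.9, 1763.9 and 1684.5 in BAHD1 siRNA arrays and 1376.8, 1649.6 and 1614.0 in control arrays. Both of these probe sets had all BAHD1 siRNA arrays above all control arrays (exact permutation p = 0.1 each, the smallest possible). The levels were 111.1% and 110.9% of control, with log2 fold changes of 0.15 ± 0.085 SE and 0.15 ± 0.10 SE (limma, adjusted p = 0.397 and 0.478; intensity-trend fit, 0.214 and 0.285). Their 95% intervals with one prior ran from 96.3% to 128.1% and from 93.6% to 131.4% of control. With the intensity trend the log2 interval of 200037_s_at was 0.008 to 0.30, off 0 before adjustment, and that of 201091_s_at was -0.015 to 0.31. Without control replicate 1 the value for 201091_s_at was 0.067. The dimmer probe sets 1555920_at and 230998_at were at 0.18 and 0.086, and their groups overlapped. After quantile normalisation the 4 values were 0.035 to 0.20. With every array centred on the median of all non-control probe sets, which moves the median of all tested probe sets to -0.13, they were -0.052 to 0.042, and 230998_at was negative.

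CBX5, which encodes HP1 alpha, was read by 6 probe sets that did not move one way. Probe set 226085_at had signals of 550.4, 524.3 and 542.3 in BAHD1 siRNA arrays and 503.5, 506.1 and 508.0 in control arrays, with no overlap. In 209715_at the signals were 304.0, 280.5 and 257.0 in BAHD1 siRNA arrays and 307.8, 304.2 and 307.8 in control arrays, so the BAHD1 siRNA arrays were the lower ones, narrowly so at the nearest pair. Without BAHD1 siRNA replicate 3, the lowest of them, the log2 fold change of 209715_at was -0.070 in place of -0.13. Another probe set without overlap, 234990_at, had 59.4, 63.4 and 64.4 in BAHD1 siRNA arrays against 57.8, 52.5 and 56.8 in control arrays. The log2 fold changes of the 6 ran from -0.13 to 0.16, with 4 positive and 2 negative (limma, lowest adjusted p = 0.376; intensity-trend fit, 0.42). After centring all arrays on their medians only 234990_at stayed above 0. Which transcript or 3′ end each CBX5 probe set reads was not examined here.

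CBX1, the gene of HP1 beta, did not pass the test. Its probe set 201518_at had signals of 1299.7, 1340.7 and 1334.6 in BAHD1 siRNA arrays and 1326.7, 1354.2 and 1445.7 in control arrays, which overlapped. The level was 96.4% of control, with a 95% interval of 84.2% to 110.3% (limma, log2 fold change -0.053 ± 0.080 SE, adjusted p = 0.754).

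MBD1, the methyl-CpG binding protein gene, had a negative fold change in all 5 of its probe sets, and none passed the test in either fit. Probe set 208595_s_at had 63.5, 57.0 and 50.9 in BAHD1 siRNA arrays, against 85.0, 84.3 and 62.2 in control arrays. These groups overlapped through control replicate 3, and the level was 74.8% of control (log2 fold change -0.42 ± 0.16 SE; limma adjusted p = 0.255 with one prior, 0.18 with the intensity trend). Probe set 1555611_s_at had 61.6, 46.7 and 42.8 in BAHD1 siRNA arrays and 63.4, 62.9 and 64.2 in control arrays. Its groups did not overlap, but BAHD1 siRNA replicate 1 lay close to the controls, and the spread was 0.27 in BAHD1 siRNA arrays and 0.015 in control arrays (SD of log2 values, n = 3 each). Its log2 fold change was -0.35 ± 0.15 SE (adjusted p = 0.291 by limma), and -0.24 without BAHD1 siRNA replicate 3.
The brightest MBD1 probe set on these arrays, 203353_s_at, had 188.8, 214.9 and 196.8 in BAHD1 siRNA arrays and 207.2, 228.2 and 208.3 in control arrays, a level of 93.3% of control with an interval of 79.7% to 109.1%. That interval does not reach the 74.8% of 208595_s_at, but the interval of 208595_s_at, 57.4% to 97.5%, contains the 93.3%. The difference between the probe sets was not tested. The remaining probe sets, 226862_at and 241813_at, were at -0.15 and -0.01. The sign of the last turned to 0.062, 0.070 and 0.076 without control replicate 1, control replicate 3 and BAHD1 siRNA replicate 2. All 5 MBD1 values stayed negative under quantile normalisation and under centred medians.

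SETDB1, the histone H3 lysine 9 methyltransferase gene, gave different values in its 2 probe sets. In 214197_s_at the signals were 89.2, 82.6 and 89.7 in BAHD1 siRNA arrays, against 137.7, 101.1 and 109.6 in control arrays. All 3 BAHD1 siRNA arrays were below all 3 control arrays, and the level was 75.9% of control with a 95% interval of 60.6% to 95.0%. The log2 fold change was -0.40 ± 0.13 SE and did not pass over all probe sets (limma adjusted p = 0.223 with one prior, 0.122 with the intensity trend, exact permutation p = 0.1). This probe set had the lowest adjusted p of all members in both fits. It passed in 1 alternative, the intensity-trend fit on arrays centred on the median of all non-control probe sets (limma adjusted p = 0.037). That centring put the median of all tested probe sets at -0.13. Without control replicate 1, the highest array, the fold change was -0.27.
The other SETDB1 probe set, 203155_at, had 191.5, 232.9 and 209.6 in BAHD1 siRNA arrays and 239.2, 177.2 and 228.0 in control arrays. Its groups overlapped over most of their range, and the level was 98.9% of control (log2 fold change -0.016 ± 0.15 SE, limma adjusted p = 0.964). Its value turned positive when BAHD1 siRNA replicate 1, control replicate 1 or control replicate 3 was left out (0.053, 0.067 and 0.033). A fall of SETDB1 message as a whole was therefore not measured by both of its probe sets.

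TRIM28, the partner that brings SETDB1 to zinc finger proteins, had 865.4, 920.5 and 901.0 in BAHD1 siRNA arrays and 922.1, 786.6 and 790.1 in control arrays. The groups overlapped because control replicate 1 was the highest of all 6 arrays, and the log2 fold change was 0.11 ± 0.098 SE (limma, adjusted p = 0.589).

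The deacetylase genes did not pass the test. HDAC1 had 1483.5, 1364.5 and 1402.7 in BAHD1 siRNA arrays and 1412.7, 1540.5 and 1496.6 in control arrays. Its level was 95.5% of control, with an interval of 82.9% to 110.1% (limma, adjusted p = 0.707). HDAC5, a class IIa deacetylase gene, had 59.6, 58.0 and 67.5 in BAHD1 siRNA arrays and 52.3, 51.6 and 65.9 in control arrays in probe set 202455_at. The groups overlapped through control replicate 3, and the other control arrays were below all BAHD1 siRNA arrays (log2 fold change 0.13 ± 0.13 SE, limma adjusted p = 0.627). The other HDAC5 probe set, 229408_at, was the only member probe set below the filter, with 40.1, 2.1 and 31.3 in BAHD1 siRNA arrays and 14.5, 9.9 and 17.4 in control arrays. Its BAHD1 siRNA arrays lay on both sides of the control arrays, and it was not tested.

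SP1, the GC box binding factor gene, had 1 probe set with higher signal in BAHD1 siRNA cells and 3 near or below the control level. In 214732_at the signals were 31.8, 40.1 and 32.8 in BAHD1 siRNA arrays, against 24.4, 28.7 and 27.9 in control arrays, without overlap. The log2 fold change was 0.35 ± 0.12 SE, and it did not pass (limma adjusted p = 0.233 with one prior, 0.405 with the intensity trend, exact permutation p = 0.1). Its interval was 0.053 to 0.66 with one prior, and with the intensity trend it was -0.14 to 0.85, which includes 0. On the log2(signal + 16) scale, which shrinks changes of dim probe sets, the fold change was 0.24. The brighter probe sets 224754_at and 224760_at were at -0.023 and -0.011, with SE of 0.090 and 0.085. Their intervals, -0.24 to 0.20 and -0.22 to 0.20, overlap that of 214732_at but do not contain its 0.35, and the difference between probe sets was not tested. Probe set 1553685_s_at was at -0.17, with 79.1 to 101.0 in BAHD1 siRNA arrays and 94.0 to 119.5 in control arrays.

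**Figure D2:**
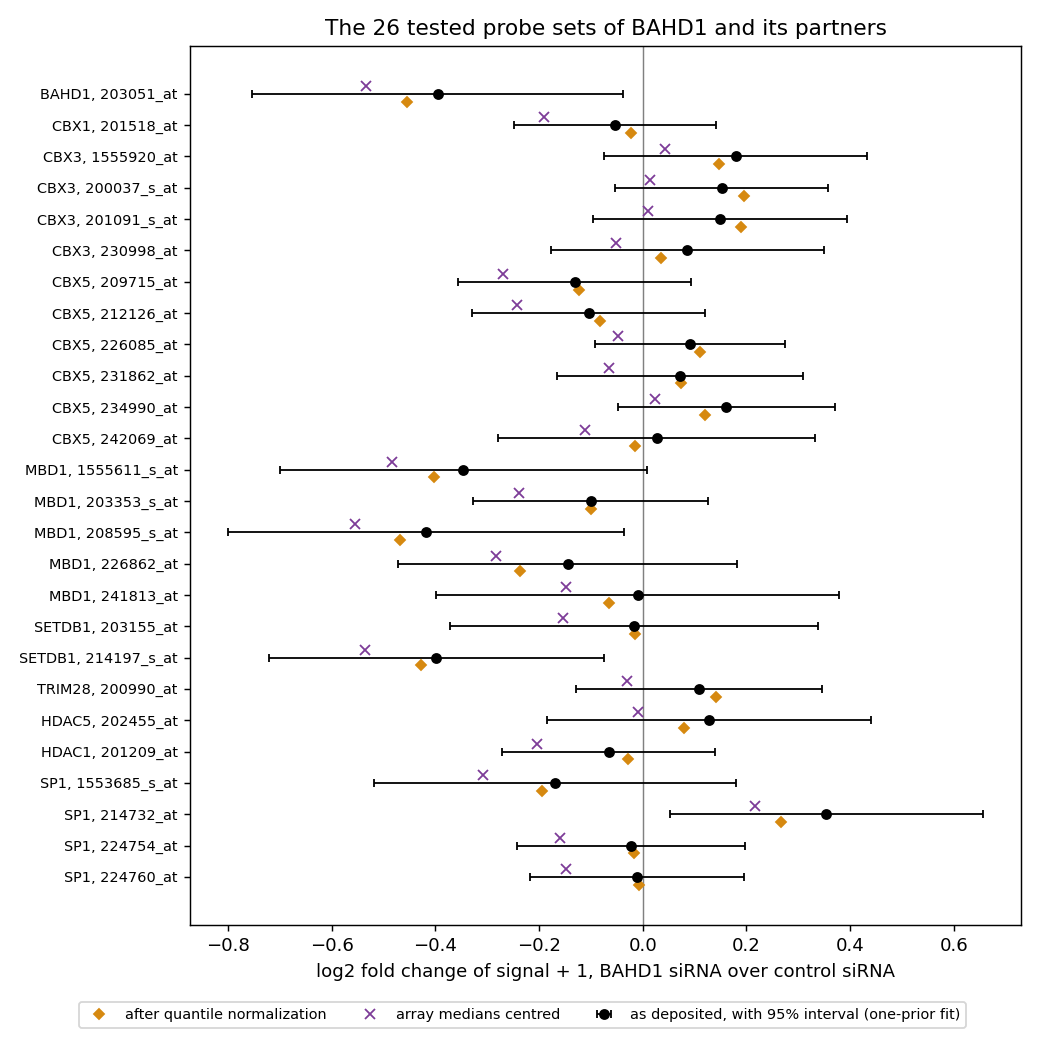
Log2 fold change of BAHD1 siRNA over control siRNA (x axis, signal + 1) for the 26 tested member probe sets, one row each. Black points and bars give the value and its 95% interval from the limma fit with one variance prior, diamonds the value after quantile normalisation and crosses the value with array medians centred. The intervals of BAHD1, MBD1 208595_s_at, SETDB1 214197_s_at and SP1 214732_at lie off 0 before adjustment, and centring moves every row to the left.

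Counted over all members, 26 of the 27 probe sets were tested, and these 26 were above the filter signal of 17.9 on all 6 arrays, so none was kept through a single group. After Benjamini-Hochberg adjustment over 27458 probe sets, 0 of the 26 passed in the limma fit with one prior, in which 0% of all tested probe sets were called. In the intensity-trend fit 0 of the 26 passed, against 4.45% of all tested probe sets. Before adjustment, 4 of the 26 (15.4%) had p under 0.05 in the fit with one prior, against 17.6% of all probe sets, and 3 of the 26 (11.5%) in the intensity-trend fit, against 20.9%. Those 3 were CBX3 200037_s_at, MBD1 208595_s_at and SETDB1 214197_s_at. Groups did not overlap in 8 of the 26 (30.8%), where 25.6% of all tested probe sets showed no overlap. In 5 the BAHD1 siRNA arrays were the higher ones (13.4% of all probe sets) and in 3 the lower ones (12.2% of all). The median log2 fold change of the members was -0.014, with 11 positive and 15 negative, and the median over all tested probe sets was 0.013. The median size of the change, without sign, was 0.12 for the members and 0.17 for all. In none of these comparisons were the members and all tested probe sets matched for brightness. With one prior the median SE over all tested probe sets was 0.25 in the dimmest of 4 equal bins of mean signal and 0.096 in the brightest.

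**Figure D3:**
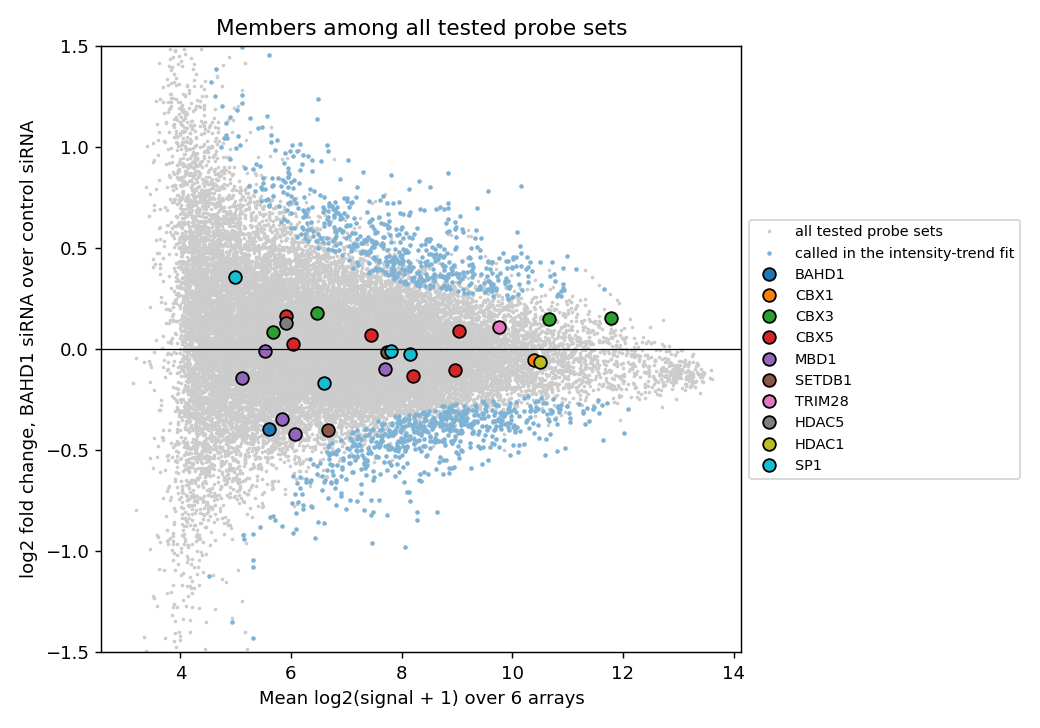
Log2 fold change of BAHD1 siRNA over control siRNA (y axis) against mean log2(signal + 1) over 6 arrays (x axis) for all 27458 tested probe sets (grey), those called in the intensity-trend fit (light blue) and the 26 member probe sets (coloured by gene). No member lies among the called probe sets, and 87 probe sets beyond ±1.5 are outside the axis.

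Genes related to the members in silencing were read from lists of 55 genes, of which 51 had a probe set of their own and 111 of 151 probe sets were tested. Below, rose and fell name calls in the intensity-trend fit only. This wording was chosen knowing that the main fit, limma with one prior, called 0 of these 111. None of the rises and falls named below is therefore a call of the main fit. In that limma fit with one prior, 21 of the 111 (18.9%) had an unadjusted p under 0.05, against 17.6% of all tested probe sets. In the intensity-trend fit 7 probe sets rose and 1 fell (7.21% called). Of all tested probe sets 4.45% were called, with 2.17% rising and 2.28% falling. The count was 5 without BAHD1 siRNA replicate 1, 0 without BAHD1 siRNA replicate 2 or 3, 2 without control replicate 1 and 1 without control replicate 2, and 1 with dim probe sets kept in. On arrays centred on the median of all non-control probe sets, 2 were called higher and 5 lower. The median log2 fold change of the 111 was 0.055, and that of all tested probe sets was 0.013.

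Among the known partners CDYL and MIER1 to MIER3, which join BAHD1 to histone deacetylases, CDYL had calls in opposite directions. CDYL encodes a chromodomain corepressor. Its probe set 203099_s_at had 91.3, 89.7 and 85.4 in BAHD1 siRNA arrays, against 164.0, 120.2 and 138.2 in control arrays, and fell by 0.65 on the log2 scale (SE 0.13; limma adjusted p = 0.141 with one prior, 0.0205 with the intensity trend). Probe set 203100_s_at had 343.4, 304.9 and 339.2 in BAHD1 siRNA arrays and 263.7, 258.9 and 250.8 in control arrays, and rose by 0.35 (adjusted p = 0.169 and 0.0368 in the same limma fits). Probe set 203098_at was at 0.006 with an adjusted p of 0.979 by limma. Of the 10 other tested probe sets of this list, covering MIER1, MIER2, MIER3 and CDYL2, none was called. The called share of the 13 tested probe sets of the list was 15.4%, against 4.45% of all tested probe sets, and 13 are too few for a conclusion.

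The remaining calls were spread over 4 lists. In heterochromatin assembly, KMT5C, a histone H4 lysine 20 methyltransferase gene, rose in its tested probe set. ATRX, a chromatin remodeller gene, rose by 0.43 in 1 of its 4 tested probe sets. Limma adjusted p was 0.171 for KMT5C and 0.169 for ATRX with one prior, and 0.0259 and 0.0248 with the intensity trend. In this list 24 of 26 probe sets were not called, so 7.69% were called, against 4.45% of all tested probe sets. The other tested ATRX probe sets were at 0.23, 0.057 and -0.033. KMT5C had 50.6, 57.4 and 64.0 in BAHD1 siRNA arrays and 35.1, 18.7 and 11.3 in control arrays. The control signals of 18.7 and 11.3 lie near or below the filter signal of 17.9, and the control arrays differed widely (SD of log2 values 0.78). The size of the difference is therefore uncertain, at 1.495 on the log2(signal + 1) scale and 1.005 on the log2(signal + 16) scale. In the DNA methylation list the maintenance methyltransferase gene DNMT1 rose by 0.35, with 1079.5, 1095.7 and 1047.0 in BAHD1 siRNA arrays and 850.7, 730.9 and 954.2 in control arrays. The limma adjusted p of DNMT1 was 0.219 with one prior and 0.0395 with the intensity trend. MBD3, which unlike MBD1 binds methylated DNA poorly in mammals, had the lowest p with one prior there, in the dim probe set 222183_x_at, which was at -0.83 and not called (limma adjusted p = 0.137 with one prior, 0.0881 with the intensity trend). The brighter MBD3 probe sets 202463_s_at and 41160_at were at 0.092 and -0.040. In the SP family, SP3 rose by 0.58 in 1 of its 4 tested probe sets, with 128.0, 151.9 and 166.2 in BAHD1 siRNA arrays and 97.1, 95.1 and 103.8 in control arrays. The limma adjusted p of that probe set was 0.142 with one prior and 0.0248 with the intensity trend. The brightest SP3 probe set, 213168_at, was at 0.099, and the other tested ones were at 0.20 and -0.33.
Among other BAH domain genes, TNRC18 rose by 0.92 and PBRM1, a subunit of a SWI/SNF remodeller, by 0.35, each in 1 probe set. Limma adjusted p was 0.160 and 0.187 with one prior, and 0.0407 and 0.0437 with the intensity trend. The TNRC18 probe set was dim, with 50.6, 58.2 and 59.4 in BAHD1 siRNA arrays and 40.4, 26.4 and 23.2 in control arrays. On the log2(signal + 16) scale it was at 0.66. The other tested probe sets were at 0.36 and 0.37 for TNRC18 and between -0.55 and 0.58 for PBRM1. In the H3K9 methylation list 0 of 16 were called, against 4.45% of all tested probe sets, and 16 are too few for a conclusion. The lowest p with one prior there belonged to SETDB2 238684_at at 0.52 (limma, adjusted p = 0.211). The other tested SETDB2 probe sets were at -0.27 for 235339_at, with no overlap and the BAHD1 siRNA arrays lower, and at 0.10 for 235338_s_at. In the list of histone deacetylases and corepressors 0 of 16 were called, and the lowest p with one prior belonged to HDAC8 223345_at at -0.36 (limma, adjusted p = 0.19). HDAC8 223908_at and 223909_s_at were at -0.36 and -0.073, with overlap.

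**Figure D4:**
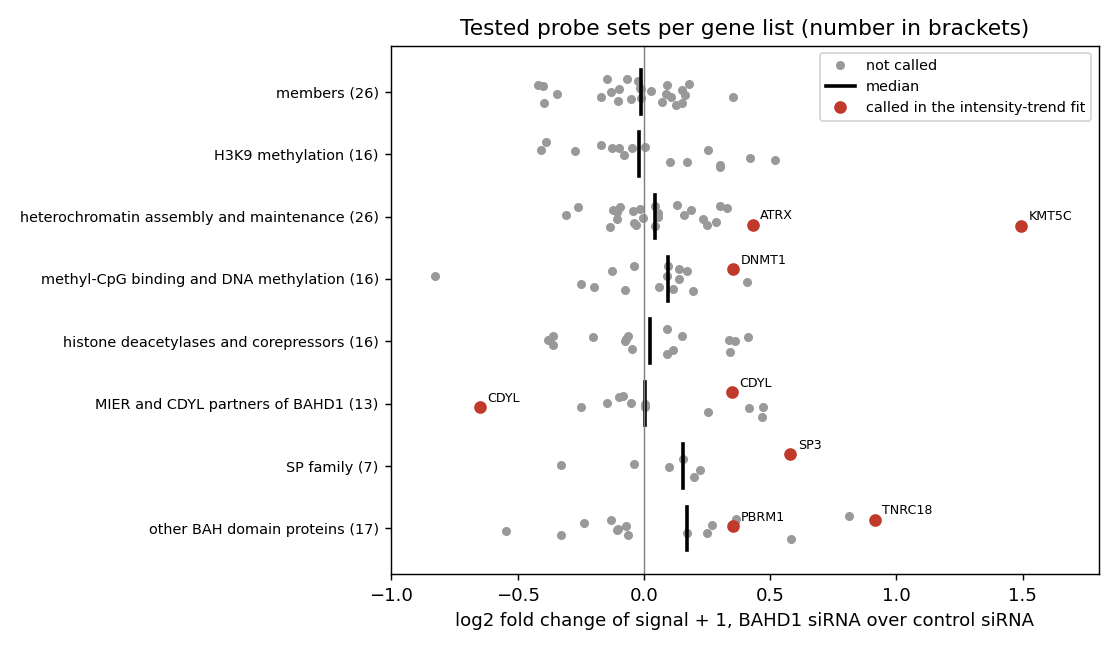
Log2 fold change of BAHD1 siRNA over control siRNA (x axis, signal + 1) for each tested probe set, by gene list (y axis, number of probe sets in brackets). Grey points were not called, red points passed in the intensity-trend fit and are named, and black bars are medians. The members lie between -0.42 and 0.35, and the red points include CDYL on both sides of 0.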

How the data were processed

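Gene expression was measured in HEK293 cells, 3 samples with BAHD1 siRNA and 3 with control siRNA, grouped by their titles. The deposited table holds 1 linear signal intensity per probe set and array. Per the submitters' processing notes GCOS and GCRMA were used, with no version or role given. The mean intensity of each array without its highest and lowest 2% was 100.01, so the deposited values are taken as scaled signal.

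The 62 control probe sets were left out. A probe set was tested when its signal was above the median, 17.9, on at least 3 arrays (27458 kept). The design foresaw log2 values or log2(value + 1), and the latter was used. Group means were fitted by lmFit and eBayes of limma 3.58.1 under R 4.3.3, once with one variance prior and once with an intensity trend (trend and robust), with Benjamini-Hochberg adjustment over all kept probe sets and a threshold of 0.05. Single values also had exact permutation tests. Genes come from the platform annotation, and 0 symbols needed an update against RefSeq. All member probe sets are named, as are the called and lowest-p probe sets of the related lists, the 5 genes most like BAHD1, and markers. The members and lists were chosen with earlier results of these data known. Scripts were tested on simulated data. Precision is limited by having 6 arrays. No 2 arrays shared more than 1.08% of values. The alternatives were other filters, scalings, offsets, a replicate block and leaving out each array, and the same in the intensity-trend fit, added after seeing the data.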

Additional observations from a re-analysis of the deposited data

Results flagged for a closer look

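The poly-A RNA controls, bacterial transcripts added to each sample before labelling, were not part of the comparison of genes and differed between the groups. The BAHD1 siRNA arrays lay above the control arrays in all 24 of these probe sets, with a median fold of 1.49. The mean over the 24 was 9.21 ± 0.17 in BAHD1 siRNA arrays and 8.63 ± 0.12 in control arrays on the log2 scale (SD, n = 3 each). A two-sided exact permutation test gave p = 0.1, which is the least that 3 against 3 can give. For the 18 controls that enter only at hybridisation, the median log2 difference was -0.12 and the exact permutation p was 0.4.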

How the results depend on the processing

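No member probe set passed under any alternative except SETDB1 214197_s_at, 1 call, in the intensity-trend fit with medians of all non-control probe sets centred. BAHD1 stayed negative and uncalled under all alternatives that tested it, between -0.53 (centred) and -0.30 (log2(signal + 16)), and between -0.51 and -0.30 without 1 array. The stricter filter left BAHD1 untested. The combinations of the intensity-trend fit with other settings and the centring on kept probe sets were added after seeing the data, and the cause of these differences was not tested. The fit with one prior called 0 of all probe sets, 1147 with the stricter filter (531 higher, 616 lower) and 0 to 4 without 1 array. The intensity-trend fit called 1221, and 177 to 1174 without 1 array. It called 1229 after quantile normalisation, 1707 with medians of all non-control probe sets centred (192 higher, 1515 lower), 1204 with medians of kept probe sets centred (458 higher, 746 lower, against 596 and 625), 1622 with the stricter filter, 1319 on the log2(signal + 16) scale and 398 without a filter. For the related lists the counts of that fit were 8, and 8, 7, 7, 8, 8 and 1 under these in turn, and 0 to 8 without 1 array. With one prior they were 7 under the stricter filter and otherwise 0. The replicate numbers were not taken as pairs: deviations of same-numbered arrays correlated at 0.010 to 0.024, and not every array correlated best with its own number. With the replicate block the fit with one prior called 0 (BAHD1 adjusted p = 0.316), and the intensity-trend fit with the block 1629, with 10 in the related lists.

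The sign turned as follows. Centred medians gave -0.052 for CBX3 230998_at, -0.047, -0.066 and -0.11 for CBX5 226085_at, 231862_at and 242069_at, -0.030 for TRIM28 and -0.009 for HDAC5, and quantile normalisation -0.015 for CBX5 242069_at. Without 1 array, CBX5 242069_at ran from -0.095 to 0.12, MBD1 241813_at from -0.16 to 0.076, SETDB1 203155_at from -0.15 to 0.067, SP1 224754_at from -0.083 to 0.025 and SP1 224760_at from -0.061 to 0.020. Of the 26 tested member probe sets, BAHD1 included, 16 kept their sign under all alternatives that tested them and 10 did not. The background under dim signals is not known, since no detection calls were used.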
